A study of Mus musculus with 48 samples.

Results

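Epidermis labelled ColXIV KO was compared with epidermis labelled ColXIV WT at Zeitgeber time 0 (ZT0), the hour at which the lights come on. The comparison holds 8 of the 48 libraries of the series, 4 with each label, and they were chosen by their labels alone. All 8 came from mice 47 weeks old. Per the labels' protocols, skin was made into a suspension of epidermal cells, and poly(A) RNA from these cells was sequenced as stranded libraries. The other 40 libraries came from the same 2 labels at ZT4, ZT8, ZT12, ZT16 and ZT20, 4 per label and time. The titles call the 4 libraries of a group biological replicates. They do not state whether each is a separate mouse, so the p-values measure the spread between these libraries, part of which may be technical. The allele, the strain and the sex of the mice are not named in the sources used.

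Collagen XIV belongs to the fibril-associated collagens with interrupted triple helices (FACIT), which sit on the surface of fibrils of collagen I and regulate their growth and spacing. In skin it is known mainly as a product of dermal fibroblasts. The series title also names the clock factor BMAL1 and the Hippo pathway effector YAP. In mice, which are active at night, the gene of BMAL1 is known to be near its daily peak at the start of the light phase, while the output gene Dbp is near its trough.

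Total counts at ZT0 ranged from 37.88 to 43.72 M per library, and 17068 genes were tested. Levels are TMM-scaled counts relative to library size (CPM). Each log2 fold change is of the KO label over the WT label, with its standard error (SE). Genes were called at an adjusted p under 0.05 in edgeR's quasi-likelihood test. The keratinocyte markers that the tissue label implies were abundant. Krt5 averaged 10500 CPM ± 865 (SD, n = 4) in libraries labelled KO and 9240 ± 1400 in those labelled WT, and Krt10 averaged 14200 ± 2850 and 13900 ± 2690 CPM. The dermal fibroblast marker Pdgfra stayed under 1 CPM in all 8 libraries. Dermal collagen genes did not all stay low. Col1a1, Col1a2 and Col3a1 were at 46.4, 51.7 and 29.9 CPM in KO replicate 4. In KO replicate 3 they were at 8.19, 11.1 and 5.37 CPM, and elsewhere at 6.61 CPM or less.

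The libraries also differed in ways the labels do not give. Xist, the RNA that coats an inactive X, reached at least 1320 CPM in 1 library labelled KO (replicate 2) and in 3 labelled WT (replicates 2, 3 and 4), and no more than 4.25 CPM in the remaining 4. Those 4 held 212 to 235 CPM of Y-linked genes against 0.347 CPM or less in the Xist libraries. The first principal component of the 8 libraries held 41.9% of their variance and put the 4 Xist libraries on one side and the 4 Y-linked libraries on the other. The Xist libraries scored 21.8 to 35.6. The replicate 1 libraries scored -45.1 (KO) and -46.4 (WT), and KO replicates 3 and 4 scored -12.6 and -6.11. What the component reflects was not tested. With 1 library labelled KO and 3 labelled WT expressing Xist, sex-linked expression and label are partly confounded at ZT0. Values within each of these 2 types of library are given beside the called genes.

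Col14a1, the gene knocked out according to the labels, was higher under the KO label at ZT0. The libraries labelled KO held 63.6, 58.6, 71.0 and 59.4 CPM, in the order of replicates 1 to 4, or 2306 to 2749 counts. The libraries labelled WT held 0.647, 0.657, 4.13 and 1.77 CPM, or 26 to 171 counts. Every library labelled KO lay above every library labelled WT. The log2 fold change was 5.12 ± 0.44 (adjusted p = 1.29e-09 in edgeR). It was 5.93 without WT replicate 3, which held the highest level under that label, 4.74 among the Xist libraries alone and 6.64 among the Y-linked libraries alone. The gene lies on chromosome 15 at 55307644 to 55520803 (GRCm38). The direction is the reverse of what a loss of transcript would give under the labels, so every comparison here is written by label and no direction is read as an effect of losing collagen XIV. A gene-level count does not show which exons the reads came from.

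Because the tissue was profiled in bulk, fewer cells of a type and less RNA per cell cannot be told apart. Of 7 measured FACIT genes Col14a1 alone was called, against 0.0527% of all genes tested (9 of 17068). Col16a1, the most abundant of them, averaged 175 ± 17.9 and 164 ± 9.43 CPM (log2 0.09 ± 0.13), and Col12a1, the closest relative of collagen XIV, averaged 42.4 ± 3.85 and 42.6 ± 7.30 CPM (-0.01 ± 0.13). Col19a1 was at 0.548, 0.417, 0.207 and 0.850 CPM against 0.398, 0.0253, 0.0966 and 0.257 CPM, and its groups overlapped (unadjusted p = 0.042 in edgeR). The summed level of 21 fibroblast and dermis genes was 261 to 365 CPM under the KO label and 249 to 339 CPM under the WT label. Of the 21, 4 were higher and 1 was lower at an unadjusted p under 0.05 in edgeR, and none was called. Col1a1, the main chain of dermal collagen, was at 1.67, 1.18, 8.19 and 46.4 CPM in libraries labelled KO and at 1.37, 0.303, 1.26 and 0.957 CPM in those labelled WT. Its log2 fold change was 3.88 ± 1.56, and that of Col3a1 4.0 ± 1.67. The 2 highest values of Col1a1 were in replicates 4 and 3 labelled KO. Col14a1 was at 59.4 and 71.0 CPM in these and at 63.6 and 58.6 CPM in replicates 1 and 2 labelled KO. Whether dermal cells contributed to the level of Col14a1 was not tested.

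The genes that passed the test at ZT0 were few. Of the 9, 6 were higher under the KO label (0.0352% of genes tested) and 3 were lower (0.0176%). The 6 were Col14a1, Gm5481, Tspyl5, Stk3 and 2 gene IDs with no name in the tables used, Entrez 100503231 and 100504598. The 3 were Polr2k, Snhg18 and Slc22a22. At an unadjusted p under 0.05 in edgeR there were 507 genes (2.97%), and in 231 genes (1.35%) the groups of 4 did not overlap, with the KO label above in 0.586% and below in 0.768%. None of the 9 had overlapping groups, which also fixes their sign within each sex-linked type. The fits within a type were small. Among the Xist libraries (1 labelled KO against 3 labelled WT) Col14a1 alone was called, and among the Y-linked libraries (3 against 1) Col14a1 and Entrez 100504598 of the 9 were called.

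Tspyl5 encodes a nucleosome assembly family protein known to act on p53 turnover in human cells. It was at 1.62, 2.08, 1.76 and 1.83 CPM under the KO label and at 0.348, 0.455, 0.386 and 0.303 CPM under the WT label. Both groups were tight and the gap between them was wide (log2 2.28 ± 0.38, adjusted p = 0.00145). It was 2.45 among the Xist libraries and 2.31 among the Y-linked libraries. The gene lies on chromosome 15 at 33683875 to 33687883.

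Stk3 encodes MST2, the Hippo kinase that activates LATS kinases and so restrains YAP. It was at 18.7, 15.6, 19.2 and 17.8 CPM under the KO label and at 13, 11.6, 9.71 and 11.3 CPM under the WT label, with no overlap. The rise was modest (log2 0.64 ± 0.12, adjusted p = 0.0117) and its call depended on single libraries. The adjusted p was 0.0663 without KO replicate 1, 0.112 without KO replicate 3, 0.0515 without KO replicate 4, 0.137 without WT replicate 3 and 0.0613 without WT replicate 4, with the log2 fold change between 0.58 and 0.65 in all 5. With only the 8 ZT0 libraries in the fit it was 0.65 with an adjusted p of 0.231. It was 0.52 in each sex-linked type. The gene lies on chromosome 15 at 34875499 to 35155882.

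The other 15 measured genes of the Hippo core did not pass. Yap1 averaged 252 ± 5.35 CPM under the KO label and 246 ± 8.32 under the WT label (0.04 ± 0.06). Stk4, the paralogous kinase MST1, averaged 62.8 ± 3.84 and 61.1 ± 3.83 CPM (0.04 ± 0.06). Lats2, a kinase that MST2 activates, averaged 37.5 ± 2.22 and 39.1 ± 1.07 CPM. Tead4, one of the DNA-binding partners of YAP, had the highest fold change after Stk3, at 0.31 ± 0.24. Among 21 measured YAP and TAZ targets none was called, 14 were positive, and their median log2 fold change was 0.025 beside -0.004 over all genes. Ccn1, a classical YAP target, was at 575 ± 97.5 CPM against 528 ± 296 CPM.

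Gm5481 is annotated as a transcribed pseudogene on chromosome 16 and showed the largest fold change of the 9. Libraries labelled KO held 848, 921, 664 and 755 counts, and those labelled WT held 5, 3, 5 and 7 counts. In CPM these were means of 19.8 ± 1.94 and 0.121 ± 0.0358 (log2 7.31 ± 1.2, adjusted p = 0.00145). The log2 fold change was 7.43 among the Xist libraries and 7.24 among the Y-linked libraries. The near-zero level under the WT label did not hold at all times. That label averaged 6.03 ± 7 CPM at ZT4 and 3.42 ± 6.6 CPM at ZT16. At ZT8, ZT12 and ZT20 it averaged 0.128 CPM or less. The gene is called with edgeR and DESeq2 and has an adjusted p of 0.0964 in limma-voom. Its sequence is related to that of the ribosomal protein gene Rpl30, whose reads its count may share: 4 other Rpl30 copies measured here match Gm5481 over 345 bases at 93.9 to 95.9% identity.

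Rpl30 itself lies on chromosome 15 at 34440505 to 34443276 and came just short of the threshold. It had 10795, 8613, 9197 and 7886 counts under the KO label and 16073, 13039, 13882 and 14727 counts under the WT label, with no overlap. Its means were 227 ± 32.7 and 352 ± 32.4 CPM (log2 -0.63 ± 0.14, adjusted p = 0.0606). The adjusted p was 0.0349 without KO replicate 1, 0.0427 in limma-voom, 0.0461 with the replicate number as a block at ZT0 only and 0.112 with that block over all times. Rpl30 matches Gm12191 at 99.7% over 348 bases and Gm7429 at 98.9%, so reads could be divided among them. Gm12191 averaged 278 CPM under the KO label and 293 under the WT label, Gm7429 averaged 125 and 107 CPM, and Gm9703 averaged 140 and 180 CPM. The sum of Rpl30 and 5 copies was 792 ± 109 CPM against 936 ± 103 CPM, with ranges of 704 to 935 and 851 to 1080 CPM that overlapped (2-sided exact permutation test that does not use the replicate numbers, p = 0.143, smallest possible 0.0286).

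The 2 IDs without a name had the smallest p after Col14a1. Entrez 100503231 (ID100503231) was at 4.36, 4.28, 4.13 and 3.81 CPM under the KO label and at 0.871, 0.935, 0.507 and 0.700 CPM under the WT label (log2 2.46 ± 0.29, adjusted p = 1.08e-06). Entrez 100504598 (ID100504598) was at 7.98, 7.06, 7.54 and 6.93 CPM against 2.99, 3.64, 3.38 and 3.10 CPM (1.17 ± 0.15, adjusted p = 3.96e-06). Entrez 100503231 had a log2 fold change of 2.58 among the Xist libraries and 2.24 among the Y-linked libraries. Entrez 100504598 had 1.07 among the Xist libraries. In both IDs the spread within a label was small beside the gap between labels, and no position or function is given for them here.

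Polr2k encodes a small zinc-binding subunit shared by the nuclear RNA polymerases. It was at 5.66, 5.51, 5.63 and 4.38 CPM under the KO label and at 9.78, 11.4, 9.49 and 9.01 CPM under the WT label. The groups stood well apart (log2 -0.91 ± 0.15, adjusted p = 0.00145). With only the 8 ZT0 libraries in the fit the adjusted p was 0.0575. The log2 fold change was -0.85 among the Xist libraries and -0.90 among the Y-linked libraries. Polr2k, on chromosome 15 at 36174010 to 36177012, has pseudogenes of up to 99.4% identity over 177 bases that were not among the genes tested, so part of its reads may have been lost to them.

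Snhg18 is a long non-coding RNA and the host gene of the small nucleolar RNA Snord123. It was at 1.02, 1.5, 1.06 and 1.29 CPM under the KO label and at 2.31, 3.64, 2.73 and 3.71 CPM under the WT label. The highest KO-labelled library was below the lowest WT-labelled one (log2 -1.34 ± 0.25, adjusted p = 0.00744). The adjusted p was 0.0663 without KO replicate 1, 0.0598 without KO replicate 3, 0.0566 without WT replicate 2 and 0.0613 without WT replicate 4. It was 0.24 with only the 8 ZT0 libraries in the fit. With terms for sex-linked expression it was 0.0537, with a log2 fold change of -1.11. The log2 fold change was -1.15 among the Xist libraries and -1.04 among the Y-linked libraries.

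Slc22a22, a solute carrier family member, was the least abundant of the 9. Libraries labelled KO held 1, 2, 0 and 0 counts and those labelled WT held 14, 9, 12 and 14. In sums this was 3 against 49 counts, a ratio of 0.0623 with a 95% interval of 0.0124 to 0.193 that covers counting error only (fitted log2 -3.80 ± 0.73, adjusted p = 0.0116). It lost its call without KO replicate 1 (adjusted p = 0.062), 3 (0.107) or 4 (0.109), and with terms for sex-linked expression (0.126). The fitted log2 fold changes there were -3.95, -3.45, -3.44 and -3.41. Slc22a22 had a log2 fold change of -2.53 among the Xist libraries and -4.92 among the Y-linked libraries. It was below the 1 CPM used to choose genes for naming, so it is named here because it was called.

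Promoter windows for Snhg18 and Slc22a22, the 2 of the 9 called genes that matched the window table, are shown because the series title names BMAL1 and YAP, whose partner complexes are known to bind the E-box CACGTG and the TEAD motif GGAATG. They are RefSeq windows on GRCm38.p6 of 300 bases, from 250 before to 50 after the gene start, read 5′ to 3′ on the minus strand. The Snhg18 window is at chr15:32244613-32244912 and the Slc22a22 window, 1 of 2 in the table, at chr15:57477576-57477875. Capitals mark a TEAD motif on either strand. The 2 motifs do not overlap in letters.

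Snhg18: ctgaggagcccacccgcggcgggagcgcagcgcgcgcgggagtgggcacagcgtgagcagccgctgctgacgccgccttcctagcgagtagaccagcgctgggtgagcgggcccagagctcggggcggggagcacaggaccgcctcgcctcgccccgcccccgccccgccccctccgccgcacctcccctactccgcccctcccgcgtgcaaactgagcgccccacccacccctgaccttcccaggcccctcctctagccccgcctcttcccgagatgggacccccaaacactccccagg

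Slc22a22: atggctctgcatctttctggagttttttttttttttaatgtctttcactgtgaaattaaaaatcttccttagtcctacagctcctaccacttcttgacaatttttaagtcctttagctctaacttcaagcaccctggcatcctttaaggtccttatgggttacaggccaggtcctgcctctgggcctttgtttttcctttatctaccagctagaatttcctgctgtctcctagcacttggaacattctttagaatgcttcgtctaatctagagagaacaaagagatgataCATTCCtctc

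Neither window held the E-box, which 7.15% of 32851 windows of that length in the table hold. Slc22a22 held 1 TEAD motif, on the opposite strand (CATTCC), near the end of the 50 bases after the gene start, and Snhg18 held none. The motif occurs on 1 strand or the other in 14.7% of the windows. A match is a string of letters and no evidence of binding.

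**Figure D1:**
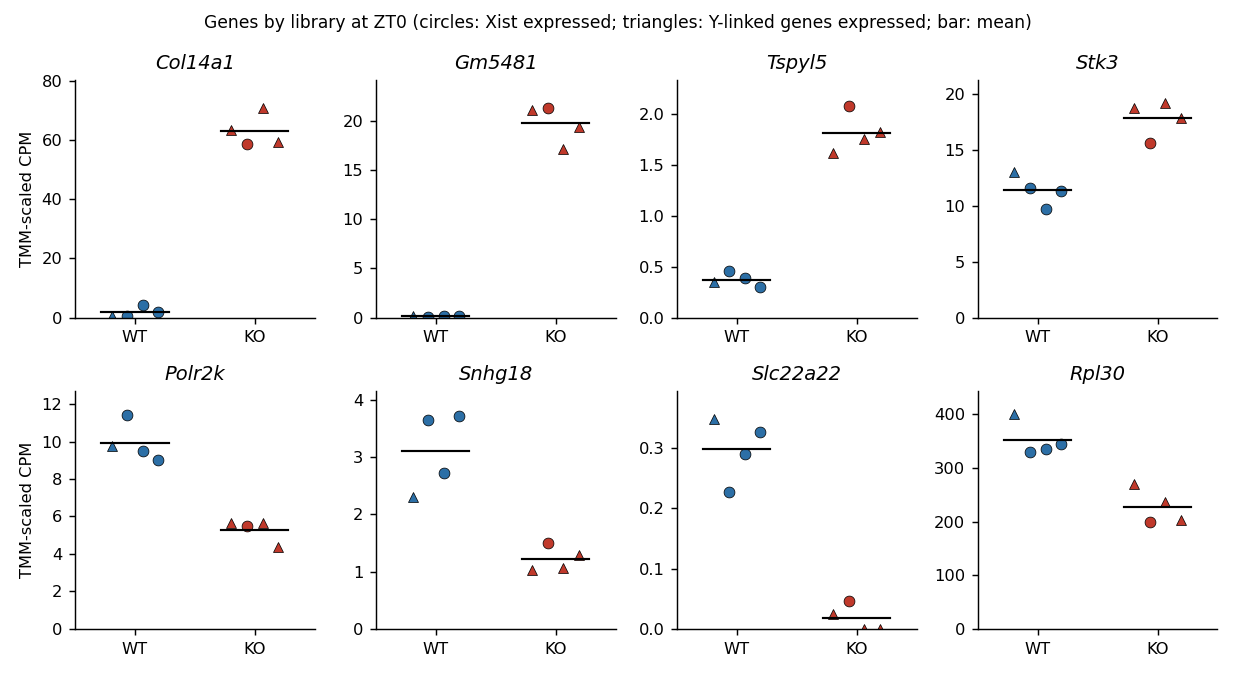
Levels of 8 genes in each ZT0 library, in TMM-scaled CPM on linear axes that start at 0 and differ between panels. Blue points are libraries labelled WT, red points libraries labelled KO, circles libraries with Xist, triangles libraries with Y-linked genes, and bars the means of 4. The groups do not overlap in any of the 8 panels, and Rpl30 (227 against 352 CPM) is the only gene drawn that was not called.

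The called genes with a known position lay mostly on 1 chromosome. Chromosome 15 carried 6 of the 7 whose position is known, against 656 (4.08%) of the 16082 tested genes with a position. Their starts lay between 32.2 and 57.2 Mb. Gm5481 was the only called gene placed elsewhere. An unadjusted p under 0.05 was reached by 54 (8.23%) of the chromosome 15 genes, of which 25 were higher and 29 lower, and by 415 (2.69%) of the 15426 others. Groups that did not overlap were seen in 37 (5.64%) of the genes on chromosome 15 and in 1.15% of those elsewhere. From 30 to 45 Mb, 4 of 56 tested genes were called and 21 reached the unadjusted threshold. From 45 to 60 Mb, which holds Col14a1, 2 of 44 were called and 7 reached it. Among the 71 genes before 30 Mb none was called and 2 reached it.

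Beside Col14a1 itself the differences were uneven. Within 2 Mb of its start 14 other genes were tested, and Slc22a22 alone was called. Their median log2 fold change was -0.06. Has2, a hyaluronan synthase, was at 1.15, 1.76, 1.16 and 0.721 CPM against 2.44, 2.38, 2.15 and 2.75 CPM, without overlap, but was not called (-1.02 ± 0.36, adjusted p = 1). Tnfrsf11b, the decoy receptor osteoprotegerin, was at 4.29, 3.96, 3.82 and 4.15 CPM against 8.93, 7.56, 6.50 and 5.67 CPM, also without overlap and not called (-0.82 ± 0.32). Taf2, Mrpl13 and Sntb1 lay between -0.06 and 0.06.

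**Figure D2:**
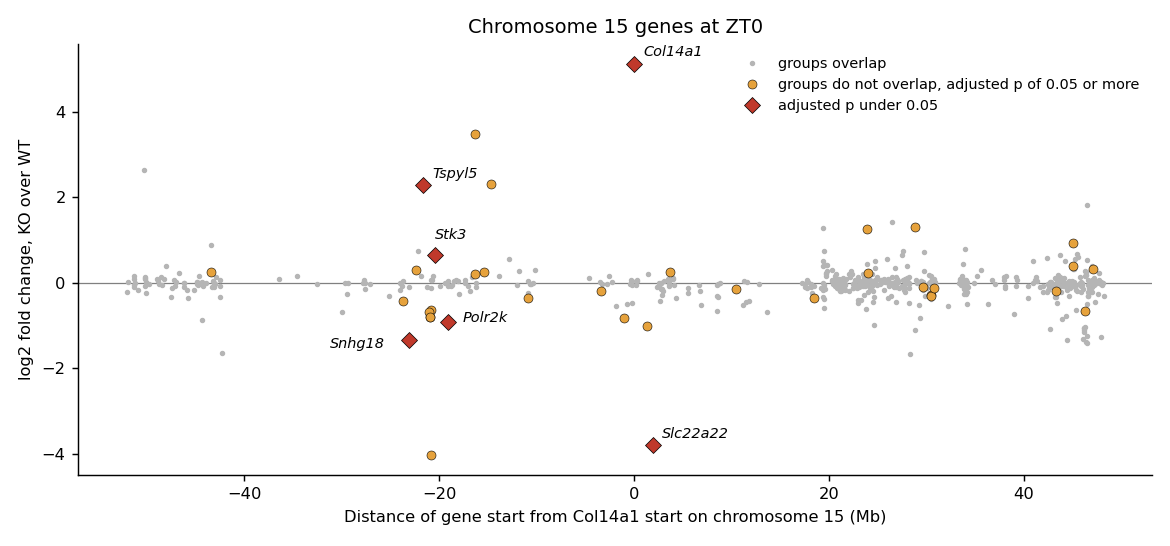
Log2 fold change at ZT0, KO label over WT label, of the chromosome 15 genes tested against the distance of each gene start from that of Col14a1 in Mb. Red diamonds are the 6 called genes, orange points genes whose groups of 4 do not overlap but were not called, and grey points the rest. Called genes stand between about 23 Mb before and 2 Mb after Col14a1, and both signs occur.

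Leaving aside predicted genes, IDs without a name and sex-linked genes, the 10 genes of smallest p in each direction above 1 CPM gave 20 named genes, of which 5 were called and 18 had groups that did not overlap. Those 2 counts follow from choosing by p. Of the 20, 13 were on chromosome 15. Higher but short of the threshold were Pnpla3, a lipase of lipid droplets, at 93.5, 73.5, 97.7 and 109 CPM against 25.5, 38.0, 52.1 and 34.5 CPM (1.31 ± 0.39, adjusted p = 1), and Sdc2, a heparan sulphate proteoglycan, at 24.2 ± 2.54 against 19.7 ± 1.38 CPM (0.30 ± 0.09, adjusted p = 0.944). The log2 fold change of Pnpla3 was 0.83 among the Xist libraries and 1.98 among the Y-linked libraries. Col6a6, a chain of collagen VI, was at 1.97, 1.46, 2.07 and 2.14 CPM against 1.74, 0.784, 0.314 and 0.537 CPM. Only WT replicate 1 overlapped the KO label, and without it the fold change was 1.80 with an adjusted p of 0.0041, beside 1.18 and 0.545 with it. Lrp12 (0.26 ± 0.08) on chromosome 15 was also not called, nor was Cdc14b (0.42 ± 0.13), Gramd2 (0.36 ± 0.10) or Fbxo25 (0.21 ± 0.06) on other chromosomes. Cdc14b overlaps an antisense gene over 23153 bases.

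Among the lower genes Matn2, a matrilin of the extracellular matrix, was at 15.8, 13.7, 12.4 and 8.53 CPM against 20.9, 21.5, 21.9 and 22.8 CPM (-0.79 ± 0.19, adjusted p = 0.166). Laptm4b, a lysosomal membrane protein, averaged 40.8 ± 4.21 against 65.7 ± 10.8 CPM (-0.69 ± 0.17, adjusted p = 0.341), and Mal2, a protein of apical membrane transport, 36.7 ± 5.15 against 51.7 ± 11.2 CPM (-0.49 ± 0.14, adjusted p = 0.599). Atpsckmt, a lysine methyltransferase of mitochondrial ATP synthase, averaged 8.14 ± 0.395 against 10.9 ± 0.364 CPM (-0.43 ± 0.10, adjusted p = 0.212). These 4 are on chromosome 15. Off it were Bbc3, Lyrm2 (-0.26 ± 0.07) and Plet1os (-0.48 ± 0.14). Plet1os lies over Plet1 on the opposite strand for 10958 bases, and since the strand setting of the counting is not known their reads may be mixed. Matn2 likewise overlaps a gene on the opposite strand over 8822 bases.

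Whether ZT0 differed from the rest of the day was tested as the ZT0 difference minus the mean difference at the other 5 times. No gene passed in edgeR (lowest adjusted p = 0.971), in DESeq2 or in limma-voom, and 336 genes (1.97%) had an unadjusted p under 0.05 in edgeR. Over the other 5 times 52 genes (0.305%) were called, 29 higher and 23 lower, and 5.75% had an unadjusted p under 0.05, from 40 libraries that the ZT0 contrast does not use. All 9 genes called at ZT0 were among them with the same sign. Of the 52, 34 were on chromosome 15, which held 4.08% of the tested genes with a position. All 52 had at ZT0 the sign they had at the other times, where 57.8% of all genes did, and in 28 of the 52 (53.8%) the ZT0 groups did not overlap. Both contrasts use 1 estimate of each gene's spread.

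Col14a1 had a log2 fold change of 5.12 ± 0.44 at ZT0 and 5.80 ± 0.21 at the other times, and Stk3 had 0.64 ± 0.12 and 0.60 ± 0.06. Tspyl5 had 2.28 ± 0.38 and 1.58 ± 0.17. Of the 15 named genes not called at ZT0, 9 were called over the other times, among them Rpl30 (-0.51 ± 0.06), Matn2 (-0.62 ± 0.08) and Pnpla3 (0.76 ± 0.17). Rtp4, an interferon-induced chaperone of receptor transport, was called at the other times at 0.98 ± 0.21 and was 0.12 ± 0.45 at ZT0. There its libraries held 0.798, 0.440, 0.749 and 0.438 CPM against 0.473, 0.657, 0.628 and 0.467 CPM, and the groups overlapped. Oasl2 was 0.70 ± 0.15 at the other times and 0.37 ± 0.34 at ZT0, and Acsm1 was -0.52 ± 0.11 and -0.03 ± 0.25. None of these 3 passed the test of the difference.

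Some of the 10 genes with the smallest p in that test, above 1 CPM, are given as values, since none passed. Bbc3 encodes PUMA, a pro-apoptotic p53 target. At ZT0 it was at 9.02, 9.63, 11.1 and 8.29 CPM under the KO label and at 13.1, 11.6, 12.3 and 13.1 CPM under the WT label, without overlap. Its log2 fold change was -0.40 ± 0.10 at ZT0 and 0.01 ± 0.04 at the other times (difference -0.41, unadjusted p = 0.000314, adjusted p = 1 in edgeR). Gramd2 was 0.36 ± 0.10 at ZT0 and -0.03 ± 0.04 at the other times (difference 0.39, unadjusted p = 0.000597). Snupn, the import adaptor of spliceosomal particles, was at 7.47 ± 0.271 against 6.29 ± 0.277 CPM at ZT0 (0.25 ± 0.09) and at -0.10 ± 0.04 in log2 fold change at the other times. Neo1, the netrin and RGM receptor neogenin, was -0.22 ± 0.10 and 0.10 ± 0.04. These genes were chosen for the size of this difference relative to its error. Gramd2, Snupn and Neo1 lie on chromosome 9, as do Plet1os, Plet1 and 4930550C14Rik among the 10. All of these lie between 50488799 and 59718873 on it. Bbc3, Fbxo25 and Gm5127 of the 10 lie on other chromosomes, and ID100861920 has no position. Why several lie on chromosome 9 was not tested.

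**Figure D3:**
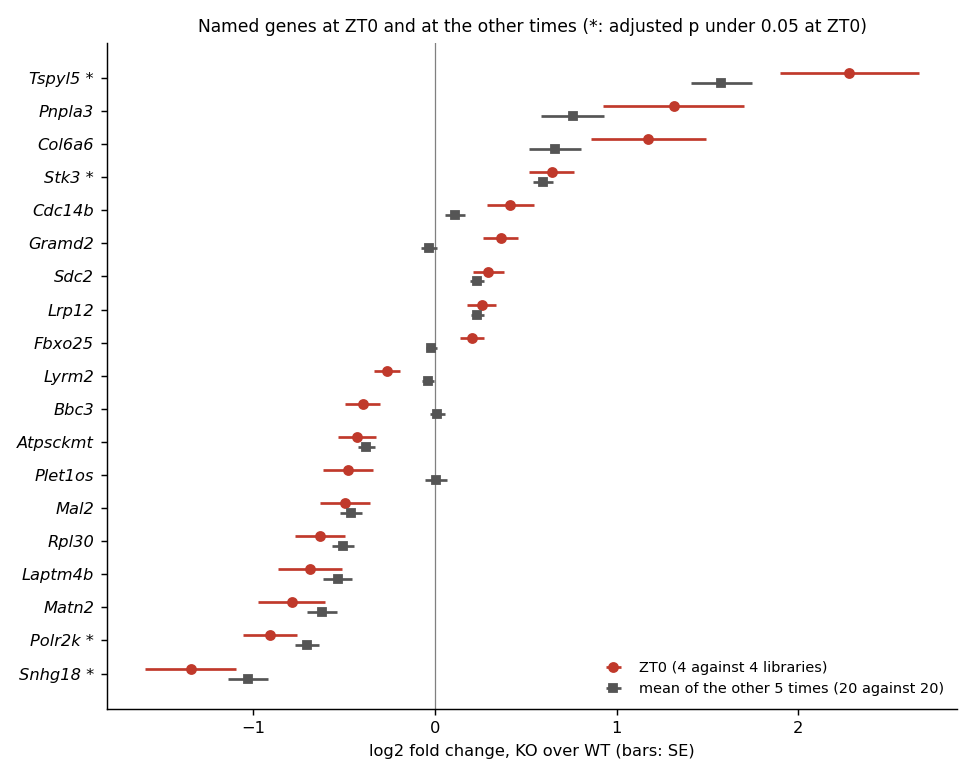
Log2 fold changes, KO label over WT label, of the named genes without Col14a1, at ZT0 (red, 4 against 4 libraries) and over the other 5 times (grey, 20 against 20), with bars of 1 SE and asterisks on genes called at ZT0. Stk3 (0.64 and 0.60) has similar values in both. Unlike ones are seen for Tspyl5 (2.28 and 1.58) and Pnpla3 (1.31 and 0.76) on chromosome 15. They are also seen for Bbc3 (-0.40 and 0.01) and Gramd2 (0.36 and -0.03) elsewhere, but no gene passed the test of that difference.

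The circadian clock was measured at the phase at which the labels place it, and no clock gene was called. Arntl, the gene of BMAL1, was at 74.8, 81.1, 65.2 and 68.5 CPM under the KO label and at 75.5, 73.8, 65.8 and 78.3 CPM under the WT label, and the groups overlapped. Its difference was -0.02 with a 95% interval of -0.26 to 0.23 on the log2 scale. At ZT12 it averaged 20.7 ± 1.90 and 19.4 ± 2.50 CPM. Dbp, an output transcription factor driven directly by BMAL1, was at 8.13, 5.42, 8.26 and 8.47 CPM against 7.27, 6.57, 9.56 and 5.67 CPM at ZT0, and at means of 131 and 130 CPM at ZT12. The ZT0 libraries of both labels thus held Arntl at a high and Dbp at a low level.

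Of the activators, Clock averaged 94.8 ± 8.40 and 91.3 ± 6.34 CPM and Npas2, its paralogue, 32.1 ± 5.71 and 31.7 ± 4.33 CPM. Of the repressors, Per1 averaged 98.5 ± 52.6 and 84.7 ± 18.8 CPM, its spread set by 171 CPM in KO replicate 2. Per2 averaged 5.11 ± 1.81 and 5.56 ± 1.27 CPM, and Cry1 22.9 ± 1.36 and 24.6 ± 3.84 CPM. Nr1d1, the gene of REV-ERBα, was at 59.7, 32.5, 47.6 and 52.7 CPM against 48.5, 42.8, 45.9 and 36.3 CPM. Bhlhe41, a repressor of E-box transcription, was the only one of 23 clock genes with an unadjusted p under 0.05 (1.05 ± 0.283 against 1.84 ± 0.916 CPM, -0.81 ± 0.30, adjusted p = 1 in edgeR), and its groups overlapped as did those of the other 22. The median of the 23 log2 fold changes was 0.071, with 16 positive and 7 negative, and in 22 of them the 95% interval lay within 1 log2 unit of 0.

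**Figure D4:**
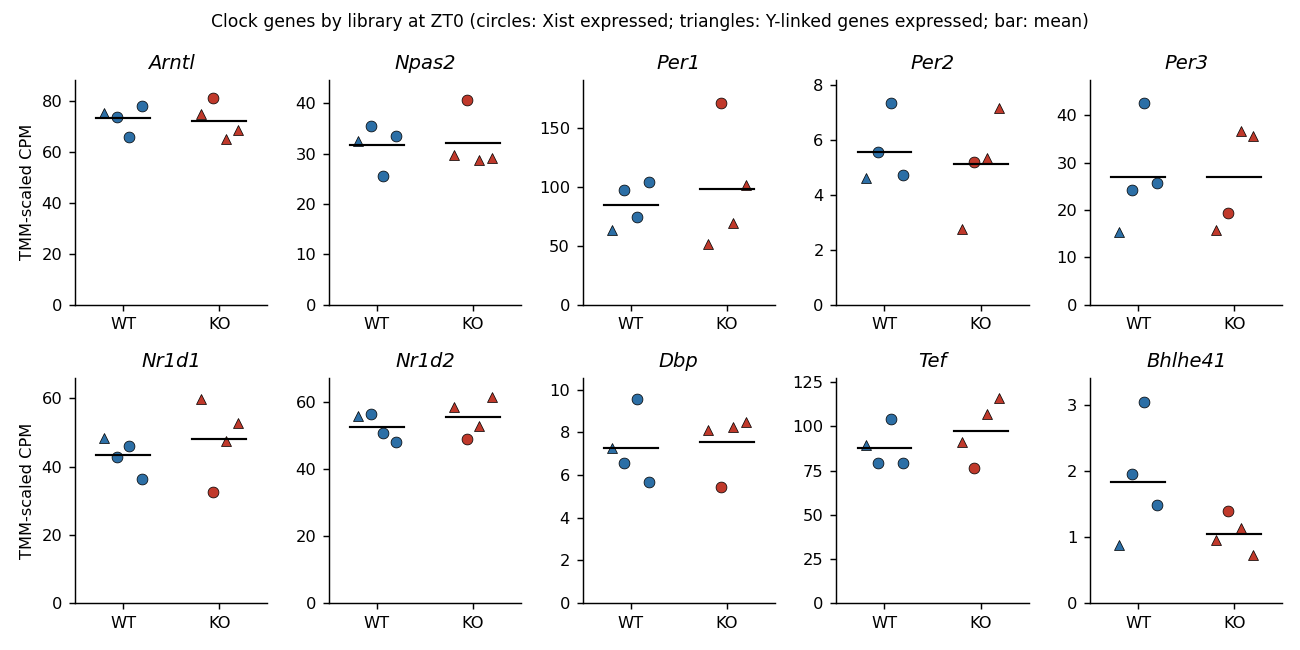
Levels of 10 clock genes in each ZT0 library, in TMM-scaled CPM on linear axes from 0, with colours for the labels (blue WT, red KO), circles for libraries with Xist, triangles for libraries with Y-linked genes and bars for means of 4. The 2 labels overlap in every panel, and KO replicate 2, the 1 KO library with Xist, is the highest for Per1 (171 CPM) and the lowest for Dbp (5.42 CPM) under its label.

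Gene groups of the epidermis were followed as lists, and only Stk3 and Col14a1 were called among all their measured members. The values below are counts of signs and medians, beside 8167 positive of 17068 genes tested and a median of -0.004 over all genes. Basal keratinocyte genes were positive in 15 of 16, with a median of 0.108 at ZT0 and -0.003 at the other times. Their summed level was 26600 to 30300 CPM under the KO label and 21500 to 29200 CPM under the WT label, so the groups overlapped. Among these genes Krt5 was at 0.19 ± 0.11, Krt14 at 0.03 ± 0.14, Krt15 at 0.16 ± 0.11 and Col17a1, a hemidesmosome collagen, at 0.12 ± 0.11. Krt5 was lowest in WT replicate 3, at 7500 CPM beside 9250 to 10900 CPM in the other WT libraries. Of 29 spinous and granular genes 12 were positive and 17 negative, and the median was -0.084. Krt10, the most abundant, was at 0.03 ± 0.16 and Krt77 at -0.22 ± 0.15. Krt1, which had the smallest p of this list, was at 0.53 ± 0.32. Genes of S phase were negative in 19 of 24 (median -0.067) and those of G2 and M phase in 17 of 22 (-0.016). Mki67 averaged 228 ± 13.2 and 236 ± 32.4 CPM. No member of these 4 lists reached an unadjusted p under 0.05 in edgeR.

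Metabolic lists held no called gene. Glycolysis genes were positive in 15 of 16 with a median of 0.086, and Pkm, the last enzyme of the pathway, averaged 488 ± 125 and 432 ± 142 CPM. Genes of oxidative phosphorylation were negative in 20 of 24 with a median of -0.037, with Sdhb, a subunit of complex II, lowest in p (-0.22 ± 0.09, unadjusted p = 0.017 in edgeR). Of 29 genes of lipid and barrier synthesis 19 were positive, and the 2 with an unadjusted p under 0.05 had opposite signs. These were Pnpla3, given above, and Elovl6, a fatty acid elongase, at 239, 279, 186 and 150 CPM against 244, 371, 557 and 321 CPM (-0.80 ± 0.34, adjusted p = 1 in edgeR).

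Of 33 interferon response genes 25 were positive, with a median of 0.135 at ZT0 and 0.278 at the other times, and none was called at ZT0. Iigp1, a GTPase of cell-autonomous defence, was at 9, 1.30, 5.47 and 1.34 CPM against 1.97, 1.31, 2.10 and 0.794 CPM. KO replicates 1 and 3 were high, KO replicates 2 and 4 lay among the WT libraries, and the same 2 libraries led for Tgtp2 (4.14 and 2.17 CPM). The 14 MHC class I genes had a median of 0.036. Of 20 epidermal inflammation genes 1 had an unadjusted p under 0.05, the neutrophil alarmin S100a8 at 0.199, 0.347, 0.439 and 0.0515 CPM against 0.348, 1.21, 0.435 and 2.19 CPM (-2.0 ± 0.66, adjusted p = 1 in edgeR), and its groups overlapped. Over the other 5 times S100a8 was called at -1.42 ± 0.33 (adjusted p = 0.0328 in edgeR). S100a9, in the same list, averaged 0.416 ± 0.170 and 0.374 ± 0.260 CPM at ZT0 (0.15 ± 0.71).

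Markers of hair and gland were lower in fold change under the KO label without passing the test. All 14 sebaceous gland genes were negative (median -0.916), and their summed level was 826 to 1380 CPM under the KO label and 1050 to 2110 CPM under the WT label. Scd3, a sebocyte desaturase, averaged 66.0 ± 18.5 and 110 ± 33.3 CPM (-0.74 ± 0.40). Of 19 genes of the anagen hair shaft and inner root sheath 18 were negative (median -1.048). Their sum was 36.3, 35, 72.3 and 116 CPM in libraries labelled KO and 38.8, 39.0, 213 and 171 CPM in those labelled WT, so that WT replicates 3 and 4 were highest and the groups overlapped. Krt71, an inner root sheath keratin, averaged 4.96 ± 5.2 and 12.8 ± 14.6 CPM. In a fit with terms for tissue make-up Stk3 was at 0.58 (adjusted p = 0.11), Snhg18 at -1.28 (0.0585) and Slc22a22 at -3.68 (0.0585), so that they lost their calls with fold changes close to those without the terms. All 8 melanocyte genes were negative (median -0.411), with Pmel at 15.1 ± 1.87 and 15.2 ± 2.32 CPM. Langerhans and dendritic cell genes were negative in 11 of 12 (median -0.180) and T cell genes positive in 9 of 13 (0.061).

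**Figure D5:**
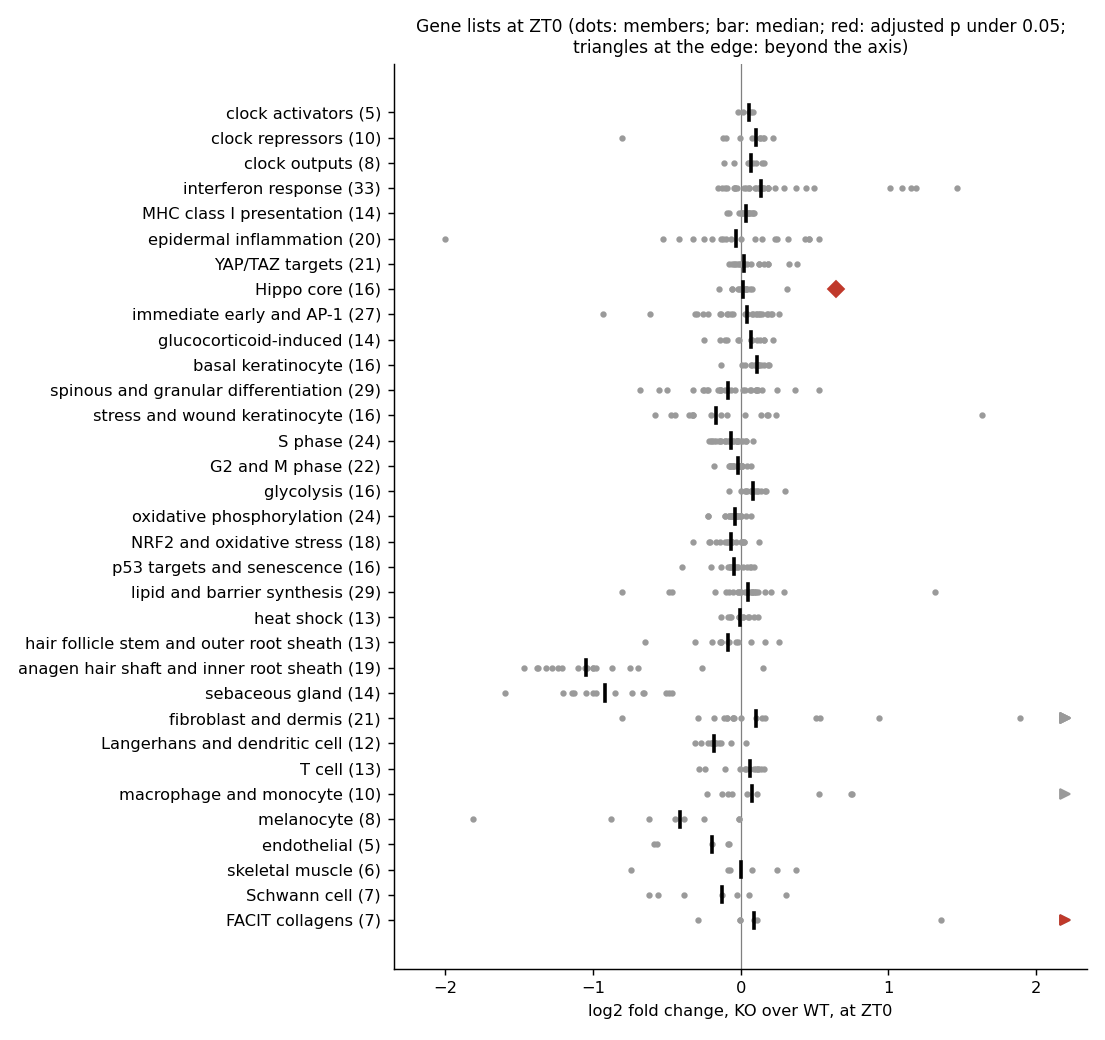
Log2 fold changes at ZT0, KO label over WT label, of the measured members of 33 lists, 1 row per list with the number of members in brackets. Grey dots are members, black bars medians, red marks called genes, and triangles at the edge stand for members beyond the axis. Stk3 and Col14a1 are the only called members, and the medians of the anagen (-1.048) and sebaceous (-0.916) lists lie farthest from 0.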

How the data were processed

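The authors deposited 1 table of raw counts per Entrez gene ID for all 48 libraries, with no normalisation. The tools STAR 2.7.10a, Trim Galore and featureCounts and the build GRCm38 (mm10) are credited to the submitters' processing notes. What each tool did, the annotation and whether counting used strand are not stated in those sources. The table held 27179 IDs, of which 25275 were named through RefSeq, 18 through GENCODE and 1886 stayed unnamed with 4.77% of the ZT0 counts. All value columns matched a sample.

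From the counts, 17068 genes passed filterByExpr over the 12 groups. They were scaled by TMM and fitted with 12 group means over all 48 libraries (edgeR 4.0.16 in R 4.3.3, glmQLFit robust and glmQLFTest), and p was adjusted by Benjamini-Hochberg over all of them. Contrasts were KO minus WT at ZT0, the mean difference at the other 5 times, and the first minus the second. The script was tested on simulated data. The members, gene lists and tests were chosen with earlier results of these data known. Named genes were the 10 of smallest p in each direction at ZT0 and the 10 of smallest p for the difference, all of at least 1 CPM, plus every called gene. Predicted genes, unnamed IDs and sex-linked genes were left out of the sets of the 2 directions at ZT0, but not out of the set for the difference. Other genes are examples of lists, mostly the 2 of highest level, or were picked once values had been seen.

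The alternatives used DESeq2 1.42.0, RLE scaling, limma-voom (limma 3.58.1), 2 other filters, only the 8 ZT0 libraries, a replicate block, terms for sex-linked expression or tissue make-up, each library left out, and, added after seeing the data, libraries of 1 sex-linked type and a block at ZT0 only. Replicate numbers come from the titles. Deviations of same-numbered ZT0 libraries from their group means correlated at 0.636, 0.299, 0.125 and 0.138. Libraries with different numbers were not correlated in this way, so whether the numbers pair the libraries was not tested. The main fit uses no pairing. None of the 28 pairs of ZT0 libraries looked like duplicates (chi-square per degree of freedom 13.7 to 83.5). The lowest value was that of KO replicate 2 and WT replicate 4, which differ in number. The next lowest were those of the 2 replicate 1 libraries (14.6) and the 2 replicate 2 libraries (16.7), which share a number. In each of these pairs both libraries were of the same sex-linked type.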

Additional observations from a re-analysis of the deposited data

Results flagged for a closer look

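Of 310 groups of 4 libraries, the 2 labels of 155 genes, 14 (4.52%) held 1 library whose gap to its nearest neighbour took more of the group's log2 range than Dixon's 95% limit, and chance gives about 1 in 20. The number after each gene is that share. KO replicate 4 stood apart for Polr2k (0.895, low), Cdc14b (0.849, high), Col12a1 (0.854) and the unnamed gene ID100861920 (0.959, low). KO replicate 2, the 1 ZT0 library labelled KO with Xist, stood apart for Npas2 (0.901, high), Dbp (0.906, low) and Tsc22d3 (0.849), and KO replicate 1 for Laptm4b (0.83, high). Under the WT label, replicate 1 stood apart for Pkm (0.889) and Sprr1a (0.946), replicate 2 for Lum (1.0), replicate 3 for Thy1 (0.879) and Ndufa1 (0.914), and replicate 4 for Tsc22d3 (0.89).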

How the results depend on the processing

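The 9 genes called at ZT0 became 5 with only the 8 ZT0 libraries, 1 (Col14a1) with only the libraries that express Xist (1 against 3) and 5 with only those that express Y-linked genes (3 against 1), and 6 to 11 without 1 library. DESeq2 called 13 and other settings 6 to 10. Col14a1, Polr2k, Tspyl5, Gm5481 and both unnamed IDs kept their calls without any 1 library. The 5 called among the 20 named genes became 2 with the 8 libraries, 3 with terms for tissue make-up, 1 in each sex-linked type and 3 to 6 without 1 library. The 2 called list members became 1 with the 8 libraries, with terms for tissue make-up and among Xist libraries, and 1 or 2 without 1 library. The 52 genes called over the other 5 times became 90 with terms for sex-linked expression and 22 among Xist libraries. The cause was not tested, beyond the smaller number of libraries in some settings. With the replicate block the ZT0 count was 9. The block changed no call there. With a block at ZT0 only it was 10, with Rpl30 added (adjusted p = 0.0461). The difference between ZT0 and the other times gave 0 genes in every setting that could be fitted. It and the other times could not be fitted within the Y-linked type, which no WT library at ZT20 has. Of 3121 values of single genes recomputed under 20 alternatives, 2954 kept their side of the threshold and moved little, 124 moved further, and 36 lost and 7 gained a call. None that was called changed sign, and 238 values that were not called did.

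Limits: 4 libraries per label, split 1 to 3 by sex-linked type, leave label and type partly confounded at ZT0. Lone libraries in the fits by type were assumed to vary like the other groups. Slc22a22 rests on fewer than 50 counts per label. Counts of Rpl30, its copies and genes that overlap on opposite strands are uncertain.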
